A study of Homo sapiens with 12 samples.

Results

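The replication-dependent histone genes of chromosome 6 form the largest block of histone genes in the human genome, and their H3K27ac peaks were followed in HCT116 cells. Members were the protein-coding genes of the GENCODE annotation (hg38) that start on chromosome 6 between 25.9 and 28 Mb and whose symbols begin with H1-, H2AC, H2BC, H3C or H4C. This rule gave 53 of 19689 protein-coding genes. Neighbouring starts more than 200 kb apart split the members into 3 subclusters. Subcluster 1 holds 32 genes over 268 kb (chr6:26017787-26285534, first to last start), subcluster 2 holds 5 genes over 14.3 kb (chr6:27132795-27147106), and subcluster 3 holds 16 genes over 85.5 kb (chr6:27807929-27893425). By product, 6 members encode the linker histone H1, 11 encode H2A, 14 encode H2B, 10 encode H3 and 12 encode H4.

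HCT116 is an established human colorectal cancer line. The cells were left untreated, exposed for 24 hours to 1 μM cobimetinib, an inhibitor of the MAPK kinase MEK1, or exposed for 24 hours to TNFα at 100 ng/ml, an inflammatory cytokine whose receptor signals through NF-κB and AP1. H3K27ac, acetylation of lysine 27 of histone H3 and a mark of active promoters and enhancers, was profiled by CUT&RUN, in which an antibody tethers a nuclease to marked chromatin and the released fragments are sequenced. Each condition had 2 replicates, giving 6 peak lists. The labels do not say whether replicates came from separate cultures, so p-values measure only the spread between these libraries.

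Core histones H2A, H2B, H3 and H4 build the nucleosome, and H1 binds the linker DNA at its edge. Replication-dependent histone genes are short, lack introns in their main transcripts, occur in many copies, and are transcribed mainly in S phase by a machinery concentrated at the histone locus body. Many H2A and H2B genes lie head to head and share a short promoter between them.

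The lists held between 69813 and 124771 peaks, and sequencing depth is unknown from them. For each gene, the peak with the highest score within 1 kb of any of its protein-coding transcript starts was taken as its best peak. The within-list rank of that peak is 1 plus the number of peaks of the same list with a higher score, so that a low number is a strong peak. The promoter rank is the rank of the gene's best score among those of all protein-coding genes with a peak in that list, and the promoter percentile is this rank as a percentage of those genes. Untreated replicate 2 stood apart, with a median peak width of 190 bp against 278 to 365 bp in the other lists, 10836 protein-coding genes with a peak against 11601 to 12449, and many tied scores. Libraries made with nonspecific IgG were not used here, and the peaks therefore stand without a measured background. Of 6 epithelial marker genes, EPCAM, KRT8, KRT18 and ELF3 had a promoter peak in all 6 libraries, CDH1 in 2 and VIL1 in none. Of the marker genes of other cell types, PTPRC, CD3E and ALB had none, PECAM1 had a peak in 5 libraries and COL1A1 in all 6.

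The promoters of 5 members are shown because they carry the main contrasts of the cluster. H3C6 was the member with the strongest peak, H1-2 had the steadiest rank, H2BC12 was marked through the promoter that it shares with H2AC12, and H2BC8 and H1-3 had no peak in any library. Each sequence runs 5′ to 3′ on the strand of the gene from 250 bases before the start to 50 bases after it (RefSeq, GRCh38.p14). Capitals mark 4 promoter words on either strand, overlaps included. They are the word of the TATA box, TATAAA, that of the CCAAT box, the octamer of H2A and H2B promoters, ATTTGCAT, and the H1 box, AAACACAA.
H3C6, chr6:26224885-26225184, plus strand: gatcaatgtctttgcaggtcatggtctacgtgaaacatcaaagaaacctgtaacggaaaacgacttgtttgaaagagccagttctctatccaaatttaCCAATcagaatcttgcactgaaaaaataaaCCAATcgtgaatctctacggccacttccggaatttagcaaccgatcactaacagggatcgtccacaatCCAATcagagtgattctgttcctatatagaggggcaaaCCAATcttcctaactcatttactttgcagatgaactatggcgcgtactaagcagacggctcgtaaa
H1-2, chr6:26056421-26056720, minus strand: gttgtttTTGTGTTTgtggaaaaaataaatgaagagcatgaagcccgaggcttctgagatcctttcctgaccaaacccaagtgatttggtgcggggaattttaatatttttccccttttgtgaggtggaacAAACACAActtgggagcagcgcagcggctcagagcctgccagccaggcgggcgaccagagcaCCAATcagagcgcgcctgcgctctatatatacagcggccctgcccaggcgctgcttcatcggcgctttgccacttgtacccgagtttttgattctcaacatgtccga
H2BC12, chr6:27146806-27147105, minus strand: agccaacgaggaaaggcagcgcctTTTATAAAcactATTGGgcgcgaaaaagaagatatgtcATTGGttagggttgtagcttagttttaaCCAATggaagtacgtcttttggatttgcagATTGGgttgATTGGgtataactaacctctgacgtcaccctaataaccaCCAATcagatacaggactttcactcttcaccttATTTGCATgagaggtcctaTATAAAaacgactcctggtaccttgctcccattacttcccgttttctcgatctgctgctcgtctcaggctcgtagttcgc
H2BC8, chr6:26216639-26216938, minus strand: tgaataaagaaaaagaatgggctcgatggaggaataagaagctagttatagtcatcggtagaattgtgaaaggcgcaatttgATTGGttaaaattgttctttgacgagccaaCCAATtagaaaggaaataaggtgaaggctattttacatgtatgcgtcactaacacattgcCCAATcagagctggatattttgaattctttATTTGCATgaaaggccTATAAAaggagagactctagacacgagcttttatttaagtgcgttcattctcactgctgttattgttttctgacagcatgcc
H1-3, chr6:26234938-26235237, minus strand: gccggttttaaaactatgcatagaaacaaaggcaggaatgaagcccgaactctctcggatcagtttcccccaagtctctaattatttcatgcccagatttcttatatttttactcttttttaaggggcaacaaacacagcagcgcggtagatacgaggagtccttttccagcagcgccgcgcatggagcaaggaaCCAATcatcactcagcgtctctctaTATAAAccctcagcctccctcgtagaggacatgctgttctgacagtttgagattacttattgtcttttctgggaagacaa

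H2BC12, which was marked, and H2BC8, which was not, both hold the octamer, CCAAT words and a TATA word in this window. The same words were counted in all members. RefSeq promoters of the same length were matched for 48 of the 53 members and for 15321 protein-coding genes in all, and H2AC12, H3C11, H3C12, H4C1 and H4C3 were not matched. The CCAAT word was in 41 member promoters (85.4%) against 36.6% of all promoters, and TATAAA was in 31 (64.6%) against 9.42%. The octamer was in 19 member promoters (39.6%) against 1.70% of all, and these were 8 of 10 H2A and 11 of 14 H2B promoters and none of the H1, H3 and H4 promoters. The H1 box was in 4 of 6 H1 promoters against 1.05% of all promoters, and in no promoter of a core histone. TTTGGCGC or TTTCGCGC, words for the cell cycle factors E2F, were in 11 member promoters (22.9%) against 1.69% of all, of which 5 were H2A, 5 H2B and 1 H3. Members with and without a peak both carried these words. TATAAA was in 19 of 27 promoters of members with a peak in all 6 libraries and in 7 of 16 of members with none. CCAAT was in 22 of 27 and 15 of 16, the octamer in 12 of 27 and 5 of 16, and the E2F words in 9 of 27 and 2 of 16. The windows of head-to-head H2A and H2B genes overlap, and words were counted on either strand. The same word can therefore count for both genes of a pair, so these counts are not of separate sites. A word match is a description of the sequence, and no test was made.

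Across the cluster, 30 of the 53 members (56.6%) had a peak in all 6 libraries, where 49.2% of all protein-coding genes did. Another 6 members had a peak in 5 libraries. The remaining 17 members (32.1%) had no peak in any library, against 28.6% of all genes. A peak among the 20000 highest scores of every list was found for 12 members (22.6%) against 24.9% of all genes. These shares lay near those of genes in general. Among the 30 members marked throughout, the median promoter percentile was 44.3, against 41.9 among all genes marked throughout. The members themselves ranged from 2.095 (H3C6) to 84.7 (H2AC6) in their median percentile over libraries.

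**Figure D1:**
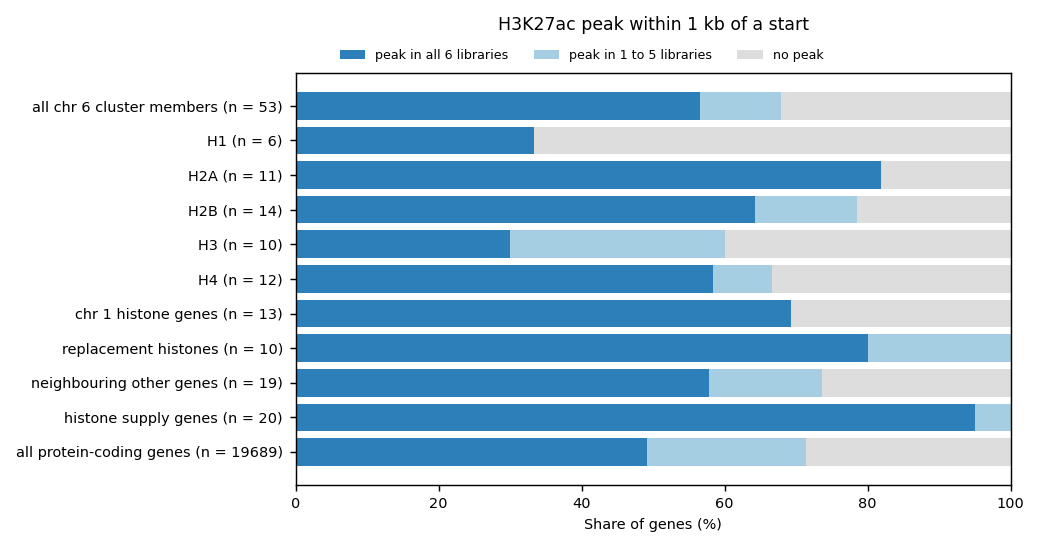
Share of genes (x axis, percent) with an H3K27ac peak within 1 kb of a start in all 6 libraries (dark blue), in 1 to 5 libraries (light blue) or in none (gray), for the chromosome 6 members, each histone class among them, the comparison lists and all protein-coding genes, with the number of genes in each. H2A genes had the highest share marked in all 6 libraries among the classes (9 of 11), and H1 and H3 genes the lowest (2 of 6 and 3 of 10).

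Of the 6 H1 genes, 2 were marked in all 6 libraries and 4 in none. H1-2, one of the abundant somatic linker histones, had within-list ranks of 3434 and 3247 in untreated replicates 1 and 2, 4312 and 3998 in cobimetinib replicates 1 and 2, and 3202 and 4544 in TNFα replicates 1 and 2. Its poorest rank was 1.42-fold its best, the lowest ratio among the 30 members marked throughout, for which the median ratio was 5.57. Its peak covered the start in all 6 libraries. H1-4, another somatic linker histone, ranked 16417 and 10854 in untreated cells, 6220 and 4914 after cobimetinib, and 16089 and 11808 after TNFα, in replicate order. Both cobimetinib libraries were better than the other 4, but the position of the best peak changed. It covered the start in 3 libraries and lay upstream in 2 and downstream in 1. H2BC5 had the same best peak as H1-4 in untreated replicate 1, cobimetinib replicate 2 and both TNFα libraries. In cobimetinib replicate 2 that peak began 636 bp downstream of the H1-4 start and covered the H2BC5 start. H1-1, H1-3 and H1-5, which are somatic linker histones too, and H1-6, the testis-specific linker histone, had no peak. The H1-3 promoter shown above holds a CCAAT word and a TATA word.

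Of the H2A genes, 9 of 11 were marked in all 6 libraries and 2 in none. Of the H2B genes, 9 of 14 were marked in all 6, 2 in 5 libraries and 3 in none. Most of these marked genes lay in pairs. Starts of neighbouring members lay within 1000 bp of each other in 10 pairs, 9 of them an H2A gene beside an H2B gene with starts 194 to 251 bp apart, and in 7 pairs both genes had the same best peak in all 6 libraries. The 1 kb windows of starts 194 to 251 bp apart overlap for most of their length. A shared best peak in such a pair is therefore largely set by the window, and close pairs of other genes were not compared. The pairs H2BC8/H2AC8 and H3C7/H2BC9 had no peak, and H2BC4/H2AC6 had the same best peak in 3 libraries. In all, the 36 marked members had 28 distinct sets of best peaks. A set counts as distinct when 1 library differs, and single libraries held 23 to 27 distinct best peaks. Paired genes are therefore not separate measurements.

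The best-ranked pair was H2AC15/H2BC15 in subcluster 3, whose shared peak ranked 4797 and 1670 in untreated cells, 8135 and 12005 after cobimetinib, and 7183 and 7411 after TNFα. Both untreated libraries were better than the 4 treated ones. The pair H2BC12/H2AC12 in subcluster 2 ranked 9708 and 2373, 20820 and 5971, and 8461 and 7311 in the same order. In untreated and in cobimetinib cells 1 replicate was well ahead of the other, and the conditions overlapped.

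H2BC11/H2AC11, the other pair of subcluster 2, ranked 6368 and 35610 untreated, 13242 and 13422 after cobimetinib, and 8341 and 14068 after TNFα. H2AC7/H2BC7 in subcluster 1 ranked 15988 and 46367, 21259 and 21180, and 12287 and 8674. The TNFα libraries were the best 2 of the 6 for H2AC7/H2BC7, and untreated replicate 2 was the poorest for both pairs. H2AC17/H2BC17, at the far end of subcluster 3, ranked 24928 and 83958, 24915 and 25740, and 15145 and 21745.

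H2BC13/H2AC13 in subcluster 3 ranked 27780 and 111728 untreated, 14301 and 11596 after cobimetinib, and 17334 and 22292 after TNFα. Their shared peak covered the H2BC13 start only in untreated replicate 2 and the H2AC13 start only in cobimetinib replicate 2. Untreated replicate 2 was again far below the rest. The same library gave the poorest rank of 14 of the 30 members marked throughout. H2AC6, the poorest member of subcluster 1, ranked 15610 and 98428, 45667 and 22097, and 21383 and 35447.

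H2BC4, its divergent partner, had no peak in untreated replicate 2 and ranked 15610, 24291, 22097, 21383 and 11176 in the other 5 lists, in the same order. H2BC3 lacked a peak in TNFα replicate 2 and ranked 32921 and 67712 untreated, 42844 and 13422 after cobimetinib, and 14374 in TNFα replicate 1. H2BC6 ranked 8536 and 4243 untreated, 2361 and 3081 after cobimetinib, and 4773 and 10994 after TNFα. The H2BC6 peak belonged to an alternative first exon (exon 1 of H2BC6-202, chr6:26172059-26172788), between 9812 and 10279 bp from the canonical start. A long noncoding RNA (ENSG00000283064) starts on the opposite strand at position 26172802, and the lists do not tell the 2 apart. H2AC4, H2BC5 and the pair H2AC14/H2BC14, the other H2A and H2B genes marked throughout, had geometric mean ranks over the 6 lists of 14744, 15246 and 11658. The H2AC14/H2BC14 peak covered neither start in any library. It lay 321 to 526 bp downstream of the H2AC14 start and 566 to 771 bp upstream of the H2BC14 start. With only the canonical start of each gene, 29 members were marked in all 6 libraries, H2BC6 being the one lost.

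Of the H3 genes, 3 of 10 were marked in all 6 libraries, 3 in 5 libraries and 4 in none. H3C6 ranked 328 and 1853 in untreated cells, 93 and 239 after cobimetinib, and 1993 and 809 after TNFα. Among the genes with a promoter peak it stood at promoter rank 218 and 838 untreated, 79 and 152 after cobimetinib, and 1015 and 283 after TNFα. It was the best-ranked member in all lists except untreated replicate 2, where H4C8 and H2AC15/H2BC15 ranked higher, and TNFα replicate 1, where H4C8 and H4C4 did. Its rank also varied most, with the poorest 21.4-fold the best.

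The H3C6 peak did not lie on the promoter printed above. It ended between 242 and 570 bp before the canonical start and covered an upstream start at position 26224199, where exon 1 of the transcript H3C6-202 is annotated (chr6:26224199-26224305), with the intron beyond it. The bases common to the peaks of all 6 libraries were chr6:26224063-26224565. The 300 bases before the upstream start, from hg38, lay wholly within the peak in 5 libraries and partly in untreated replicate 2, and hold 38.3% G and C. They are shown with the same words in capitals.
H3C6 upstream, chr6:26223899-26224198, plus strand: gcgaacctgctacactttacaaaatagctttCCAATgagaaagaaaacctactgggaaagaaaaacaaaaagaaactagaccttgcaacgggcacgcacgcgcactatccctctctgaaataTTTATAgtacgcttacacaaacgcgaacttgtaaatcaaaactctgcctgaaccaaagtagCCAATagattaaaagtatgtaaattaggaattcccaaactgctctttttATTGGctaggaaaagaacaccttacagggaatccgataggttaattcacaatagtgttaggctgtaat

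No other member lay close to this peak. The nearest member starts on either side, H2AC8 at 8214 bp and H1-3 at 9852 bp from the canonical start of H3C6, had no peak in any library. H3C1 had the same best peak as its neighbour H4C1, ranking 8441 and 9612 untreated, 8972 and 5104 after cobimetinib, and 5825 and 11808 after TNFα. H3C2 ranked 17227 and 9612, 11051 and 11210, and 20655 and 22292. In untreated replicate 2 the rank of 9612 stood for a score of 52 that 614 peaks shared, so H3C1, H4C1, H3C2, H2AC4 and H4C12 were tied there.

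The 3 H3 genes with a peak in 5 libraries had weak ones. H3C4 lacked a peak in cobimetinib replicate 2 and ranked 15988, 122123, 60214, 66760 and 14349 in the other 5 lists. H3C10 lacked one in untreated replicate 2 and ranked 27780, 15674, 22977, 21749 and 16214. H3C12 lacked one in TNFα replicate 2 and ranked 37247, 37986, 26257, 27195 and 82556.

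H3C4 and H3C10 each had 2 peaks within the 20000 highest of a list, and H3C12 had none there. In untreated replicate 1, H3C4 had the same best peak as H2AC7/H2BC7, and H3C10 the same as H2BC13/H2AC13. H3C3, H3C7, H3C8 and H3C11 had no peak.

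Of the H4 genes, 7 of 12 were marked in all 6 libraries, 1 in 5 and 4 in none. H4 genes that were marked throughout had a median promoter percentile of 24.9, against 39.8 for H3, 56.7 for H2B, 65.6 for H2A and 31.8 for the 2 H1 genes. The median over marked H4 genes was better than that over H2A and over H2B genes in 6 of 6 libraries. It was better than that over H3 genes in 5 of 6, with equal medians in untreated replicate 2. Classes share peaks, as H3C1 and H4C1 do, so the order is given without a test.

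H4C4 ranked 3434 and 3366 in untreated cells, 1300 and 1428 after cobimetinib, and 1528 and 2507 after TNFα, and all 4 treated libraries were better than both untreated ones. H4C8 ranked 2826 and 1600 untreated, 4842 and 6891 after cobimetinib, and 1459 and 3840 after TNFα. For H4C8 both cobimetinib libraries were the poorest of the 6. Both genes had their peak over the start in all 6 libraries.

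H4C12 ranked 1755 and 9612, 5351 and 4257, and 5485 and 3840. H4C3 ranked 6004 and 10854 untreated, 4312 and 2353 after cobimetinib, and 6378 and 4789 after TNFα. H4C5 ranked 4992 and 24926, 5495 and 1899, and 12132 and 9538. H4C12 was ahead of the median rank of the marked members in 6 of 6 libraries, and H4C3 in 5 of 6, with untreated replicate 2 at the median.

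H4C11 ranked 9257 and 56479 untreated, 10366 and 10576 after cobimetinib, and 9358 and 3707 after TNFα, so its spread rested on 1 poor and 1 good library. H4C2 lacked a peak in untreated replicate 2 and ranked 21349, 19621, 20286, 11681 and 21158 in the others. H4C6, H4C7, H4C9 and H4C13 had no peak.

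**Figure D2:**
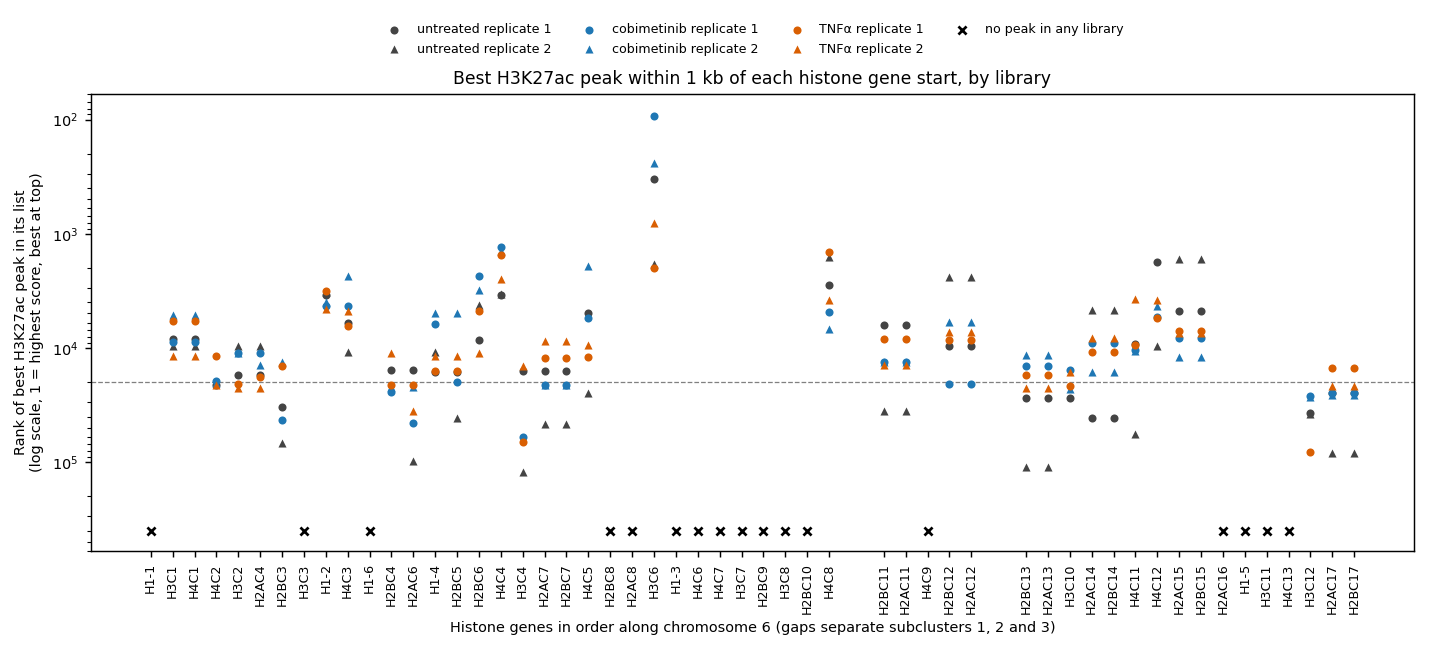
Within-list rank of the best H3K27ac peak (y axis, log scale, rank 1 at the top) of the 53 histone genes in order along chromosome 6 (x axis). Circles are replicate 1 and triangles replicate 2 of untreated (gray), cobimetinib (blue) and TNFα (orange) cells, crosses are genes with no peak in any library, and the dashed line is rank 20000. H3C6 stands highest, with ranks of 93 to 1993, and the genes without a peak sit in runs.

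Most genes without a peak were neighbours. In subcluster 1, the 7 consecutive members H1-3, H4C6, H4C7, H3C7, H2BC9, H3C8 and H2BC10 (starts chr6:26234987-26272931, 37.9 kb) had no peak, and so did H2BC8 and H2AC8 on the other side of H3C6. In subcluster 3, the 4 consecutive members H2AC16, H1-5, H3C11 and H4C13 (chr6:27865317-27873534, 8.22 kb) had none. The other 4 genes without a peak, H1-1, H3C3, H1-6 and H4C9, each lay between marked members or at the edge of a subcluster. The members next to these runs were marked. H4C8, 12603 bp beyond H2BC10, was among the best-ranked members, and H2BC15 lies 26748 bp before H2AC16.

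The longer run was nearly free of any peak. Over its 37.9 kb, 3 peaks were listed in the 6 libraries together, 2 in untreated replicate 2 and 1 in TNFα replicate 1, with scores of 23 to 44, and the nearest was 2715 bp from a member start. The run of 4 had 0 peaks in 6 libraries. Both runs were chosen because no peak lay within 1 kb of their members' canonical starts. In the run of 4 these windows take up most of the stretch, so its count is largely set by that choice. The density of peaks elsewhere was not compared. No peak number of the lists was missing between 25.9 and 28 Mb in any library.

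Histone genes resemble each other, and the authors kept only uniquely mapping reads, so the sequence around each start was searched for copies. Of the 50-base words within 1 kb of the canonical start, a median of 0% occurred again elsewhere in hg38 for the 17 members without a peak, with a highest value of 6.81%. For the 30 members marked in all 6 libraries the median was 2.95% and the highest 23.6% (H4C11). By this count of exact words, members without a peak had no more repeated sequence than marked ones. Near copies with a differing base in the word go uncounted, and whether the unique-mapping filter removed reads at these genes was not tested. On chromosome 1 the 13 histone genes differed in this respect. There 9 of 13 were marked in all 6 libraries and 4 (H4C14, H3C14, H3C15 and H4C15) in none, and for these 4 genes 100% of the words occurred again, against 5.84 to 87.8% for the 9 marked genes.

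The median levels of the subclusters varied from library to library. A peak in all 6 libraries was found for 16 of 32 members of subcluster 1, 4 of 5 of subcluster 2 and 10 of 16 of subcluster 3, and no peak for 12, 1 and 4. A top-20000 peak in all libraries was found for 9, 0 and 3 members. The median promoter percentile over marked members, averaged over libraries, was 46.4 ± 13.9 (SD, n = 6 libraries) in subcluster 1, 45.0 ± 10.1 in subcluster 2 and 60.1 ± 18.0 in subcluster 3. The subclusters were read in the same 6 libraries, so these SDs do not measure the spread of a difference between subclusters. Subcluster 3 was poorer than subcluster 1 in 5 of 6 libraries. In untreated replicate 1 the medians of subclusters 1, 2 and 3 were 68.7, 39.9 and 87.9. In TNFα replicate 2, the exception, they were 46.7, 44.2 and 34.3. Members of a subcluster share peaks and lie side by side, so no test was made.

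The position of the best peak relative to the start was set beside that of genes in general. In untreated replicates 1 and 2, the peak covered a start in 69.4% and 27.3% of marked members, against 85.5% and 44.9% of all marked genes. After cobimetinib the shares were 47.2% and 65.7% against 71.8% and 77.9%, and after TNFα 63.9% and 61.8% against 75.6% and 72.2%. The share was lower for members in 6 of 6 libraries, and these shares were not tested, since members share peaks. A peak counted where it covered any annotated protein-coding start of its gene, so genes with several starts had more chances. Most members had only 1 such start, and the number of starts was not matched between members and other genes. The peaks were not narrower in general, with a median width for members of 1913, 365, 1139, 1230, 1582 and 1048 bp against 1348, 427, 986, 1029, 1062 and 892 bp for all marked genes, in the order used above. Members had the wider median in 5 of 6 libraries, the exception being untreated replicate 2.

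Around the canonical start, the mean share of libraries with a peak over the 36 marked members was 48.1% at 800 bp upstream, 56.0% at the start, 56.9% at 400 bp downstream and 49.1% at 800 bp downstream. It fell to 12.5% at 2000 bp upstream and 13.9% at 2000 bp downstream. The profile was thus nearly flat from 800 bp before to 800 bp after the start.

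**Figure D3:**
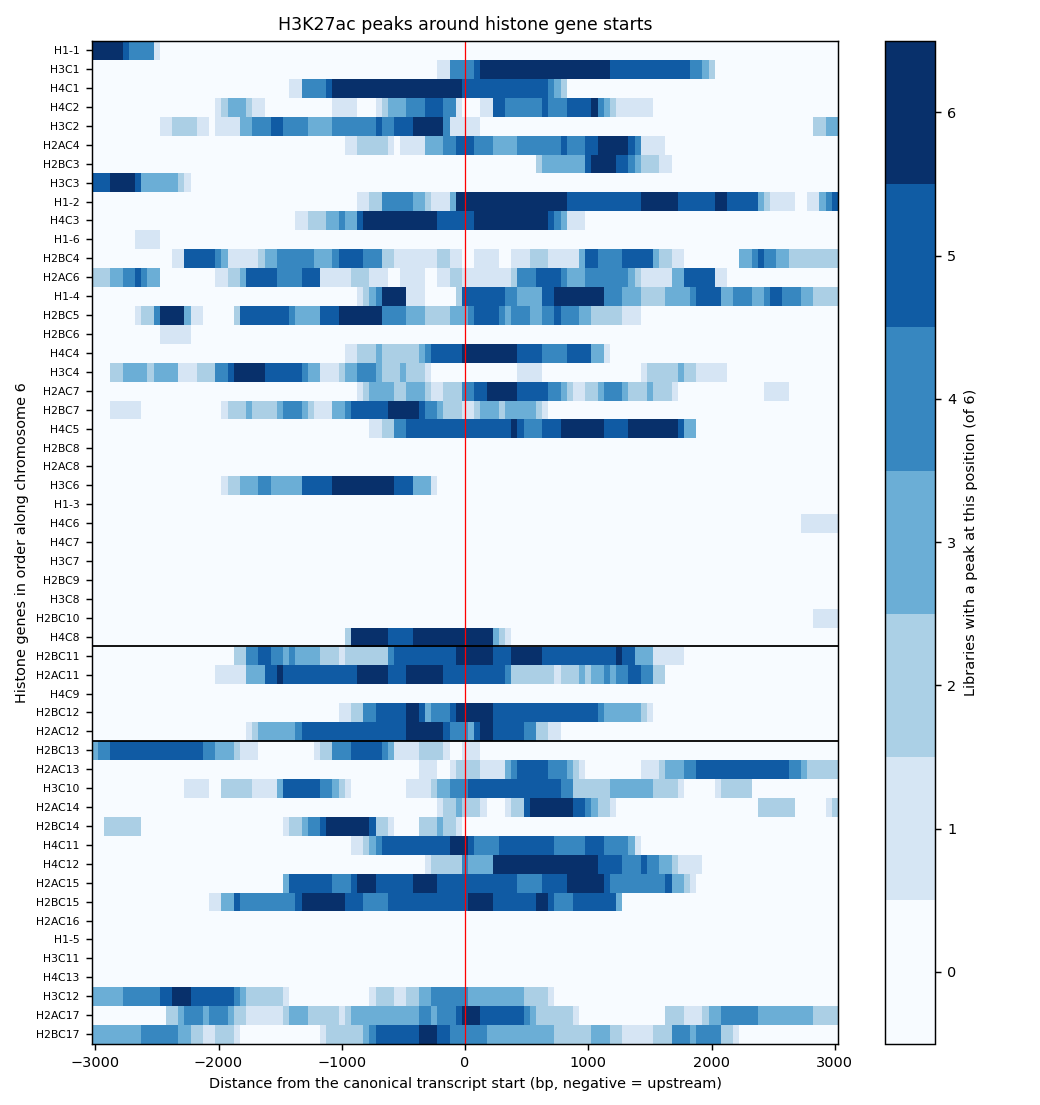
Number of libraries, of 6, with an H3K27ac peak at each position (color) from 3000 bp upstream to 3000 bp downstream of the canonical start (x axis) for the 53 histone genes in order along chromosome 6 (y axis); the red line is the start and black lines separate subclusters. The rows of H2BC8, H2AC8, H1-3, H4C7, H3C7, H2BC9, H3C8, H4C9, H2AC16, H1-5, H3C11 and H4C13 are blank, the H3C6 peak lies entirely to the left of the start, and the peaks in the rows of H1-1 and H3C3 lie beyond 2000 bp upstream. The H2BC6 row shows 1 library at most, although H2BC6 counts as marked through another of its annotated starts.

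To ask whether MEK1 inhibition or TNFα moved the mark at histone genes, log2 promoter ranks of the 3 conditions were compared with limma over the 9684 genes with a peak in all 6 libraries, 30 of them members (two-sided, Benjamini-Hochberg adjustment over all 9684 genes). Differences are on the log2 scale of the promoter rank, and a negative value is a better rank in the condition named first. The comparisons of cobimetinib and of TNFα with untreated cells share the untreated libraries. With 2 libraries against 2, an exact permutation test of 1 gene cannot give a p-value under 0.333.

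No member passed an adjusted p of 0.05 in any of the 3 comparisons. For cobimetinib against untreated, limma called 0 of 30 members and 0% of all genes. An unadjusted p under 0.05 was found for 4 members and 906 genes, and the lowest adjusted p of a member was 0.465. For TNFα against untreated, it called 0 members and again 0% of all genes, with an unadjusted p under 0.05 for 1 member and 531 genes and a lowest adjusted p of 0.894. For TNFα against cobimetinib, it called 0 members and 1 gene, or 0.0103% of all genes. An unadjusted p under 0.05 was found there for 2 members and 738 genes, and the lowest adjusted p was 0.612. The median difference of the members was 0.07, -0.0047 and -0.28 in the 3 comparisons in this order, against 0.06, 0.04 and -0.0026 for all genes.

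Members whose 4 libraries did not overlap between conditions were counted in each direction and set beside the share of all genes that did so. After cobimetinib, 7 of 30 members had both libraries better than both untreated ones, against 18.5% of all genes, and 6 had both poorer, against 19.4%. After TNFα, 9 members were better than untreated, against 15.5% of all genes, and 2 were poorer, against 16.8%. Between the treatments, 11 members were better after TNFα than after cobimetinib, against 21.7% of all genes, and 8 were poorer, against 21% of all genes. These counts hold pairs that share 1 peak. By within-list rank in place of promoter rank the counts of better and poorer members were 7 and 4, 8 and 4, and 8 and 10, where those of all 9684 genes were 2131 and 1348, 1207 and 1597, and 1506 and 2771. With normal scores of the promoter rank they were 9 and 4, 10 and 3, and 9 and 8, and over all genes 2003 and 1671, 1642 and 1473, and 2034 and 2102. By within-list rank the median of all genes moved to -0.30, -0.098 and 0.21, so directions are given relative to other genes by promoter rank.

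Among members whose conditions did not overlap, the largest differences after cobimetinib had both signs, and none passed the test. The difference for H3C6 was -1.96 (SE 1.12, adjusted p = 0.564 by limma), with promoter ranks of 79 and 152 after cobimetinib against 218 and 838. H4C4, H4C3 and H2BC6 had differences of -1.08, -1.05 and -0.92. On the other side, H2AC15 and H2BC15, which share a peak, had a difference of 1.89 (SE 0.747, adjusted p = 0.465 by limma), H4C8 of 1.62 (SE 0.859) and H1-2 of 0.47. Differences as large as some of these, -1.16 for H4C5 and 1.16 for H2BC12/H2AC12, came with conditions that overlapped. Several of these values shifted when 1 library was left out. Without untreated replicate 2, H3C6 stood at -0.99 and H4C8 at 0.93. H1-2 stood at 0.21 without that library and at 0.74 without untreated replicate 1. H2BC6 stood at -0.23 without untreated replicate 1 and at -1.61 without untreated replicate 2, and H4C3 at -0.64 without cobimetinib replicate 2.

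Without untreated replicate 1, limma called 4 members for cobimetinib against untreated, where 6.19% of all genes tested were called. These were 2 pairs with a shared peak and a poorer rank after cobimetinib. The difference was 2.92 for H2AC15/H2BC15 (adjusted p = 0.0138) and 2.36 for H2BC12/H2AC12 (adjusted p = 0.0469). Without untreated replicate 2 instead, that of H2AC15/H2BC15 was 0.86 (adjusted p = 0.755 by limma). In the fit without untreated replicate 1, untreated cells were represented by replicate 2 alone, the library that stood apart. The spread of untreated cells was taken there to equal that of the other groups.

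After TNFα, the largest difference from untreated among members that did not overlap was that of H2AC15/H2BC15, 1.32 (SE 0.747, adjusted p = 0.900 by limma), a poorer rank after TNFα. H4C11 had a difference of -1.28 (SE 0.613), H4C4 of -1.07 and H2AC7/H2BC7 of -0.70 (SE 0.361). The value for H2AC15/H2BC15 was 0.29 without untreated replicate 2 and 2.35 without untreated replicate 1. That for H4C11 was -0.50 without TNFα replicate 2 and -2.07 without TNFα replicate 1, and that for H2AC7/H2BC7 was -0.41 without TNFα replicate 2. For H2AC15/H2BC15 both treatments lay on the poorer side of untreated, and for H4C4 both lay on the better side. The untreated libraries are common to both comparisons.

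Between TNFα and cobimetinib, among members that did not overlap, H3C6 differed by 2.29 (SE 1.12, adjusted p = 0.650 by limma), with promoter ranks of 1015 and 283 after TNFα against 79 and 152 after cobimetinib. H4C5 differed by 1.44 (SE 0.702), H2BC6 by 1.11 and H1-4 by 1.00, also with the better ranks after cobimetinib. In the other direction were H4C8 at -1.64 (SE 0.859), H4C11 at -1.01 and H2AC7/H2BC7 at -0.83 (SE 0.361, adjusted p = 0.612 by limma). Without TNFα replicate 1, the value was 1.37 for H3C6, -1.002 for H4C8 and -1.80 for H4C11. Without TNFα replicate 2, it was -0.22 for H4C11, -0.54 for H2AC7/H2BC7 and 0.59 for H2BC6. For H4C5 it was 2.18 without cobimetinib replicate 1 and 0.70 without cobimetinib replicate 2. The 4 genes named with better ranks after cobimetinib were of 4 classes, H3, H4, H2B and H1, and all lie in subcluster 1. They were the largest differences of the 8 members on this side. The others were H3C2 and H2AC4 in subcluster 1 and the pair H2BC13/H2AC13 in subcluster 3. H3C2 and H2AC4 had the same best peak in cobimetinib replicate 1 and TNFα replicate 2.

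**Figure D4:**
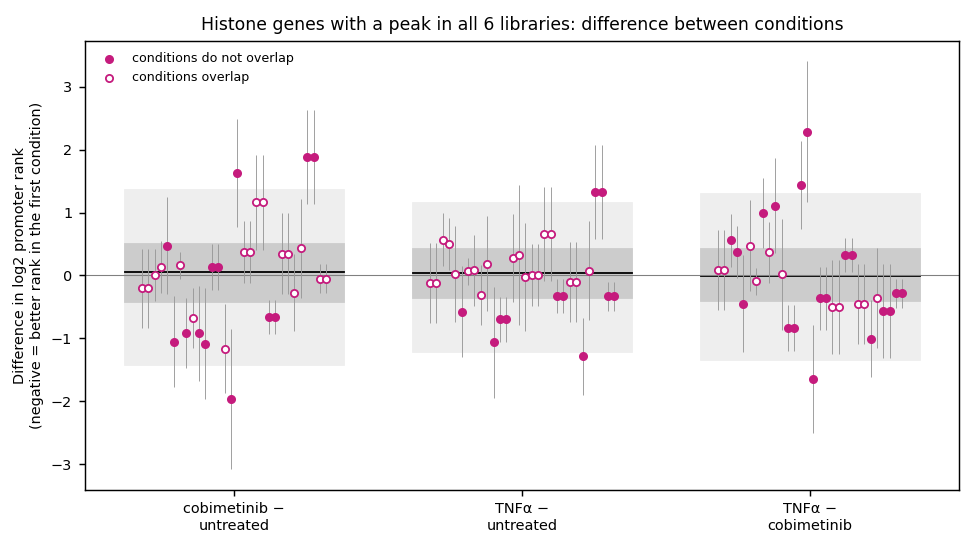
Difference in log2 promoter rank (y axis, negative for a better rank in the condition named first) of the 30 histone genes with a peak in all 6 libraries, in genome order within each of the 3 comparisons (x axis). Bars are the SE from limma, filled points are members whose conditions did not overlap, open points those that did, the gray bands hold the middle 50% and 90% of 9684 genes and the black line is their median; members scatter on both sides of 0 within and around these bands, from -1.96 to 1.89 for cobimetinib against untreated.

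Other histone genes and the genes that serve histone supply were set beside the cluster. Of 10 replacement histones, which are made throughout the cell cycle, 8 were marked in all 6 libraries. H2AJ had a peak in 3 libraries. H3-3B, which encodes the replacement histone H3.3, had a median promoter percentile of 0.896 and was thus ranked ahead of H3C6 at 2.095. Of 20 genes that serve transcription, processing and deposition of replication-dependent histones, 19 were marked in all 6 libraries. ASF1A, a histone chaperone, had a peak in 1 library. Among the 19 marked throughout, the median promoter percentile was 42.7, from 16.9 for CDK2, a kinase of the G1 to S transition, to 91.0 for LSM11, a subunit of the snRNP that processes histone pre-mRNA. Of the 19 other protein-coding genes that start in the same stretch of chromosome 6, 11 were marked in all 6 libraries, and BTN1A1, PRSS16, POM121L2, OR2B2 and OR2B6 in none. The zinc finger gene ZNF184, with a median promoter percentile of 9.40, was the best ranked of these neighbours.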

How the data were processed

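H3K27ac CUT&RUN was analysed in 6 libraries of HCT116 cells, 2 per condition. Per the labels and the study's methods, the authors trimmed reads, aligned them to hg38 with BWA (0.7.15), kept reads with a mapping quality above 10, called peaks per library with MACS2 (2.1.1) at a p-value of 0.01 without background, in paired-end and single-end mode, and merged both lists. The deposited column used is a score, the higher of the merged peaks. It depends on depth, so it was used here to rank peaks within a list. The exception was 1 alternative that required a score of at least 40. Read counts are not given by these lists, and depth is unknown.

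Best peaks, ranks and promoter percentiles were computed in Python (3.11.15) with pandas (2.3.3). Log2 promoter ranks, with no pseudocount, were compared with limma (3.58.1, R 4.3.3, trend) over genes with a peak in all 6 libraries, at an adjusted p of 0.05, after a test of the fit on simulated data. Counts of members were set beside those of all protein-coding genes.

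The members, gene lists and words were chosen with earlier results of these data known. Named with values are the 3 best and 3 poorest members per subcluster, all H1 genes, all members without a peak in at least 1 library, and up to 4 members per direction and comparison whose conditions did not overlap, with genes that share their peak. The remaining marked members were named after their values were seen. Some genes of the comparison lists are not reported here. Alternatives were other windows, starts, score and rank limits, scales and filters, a replicate block and leaving out each library.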

Additional observations from a re-analysis of the deposited data

How the results depend on the processing

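No member was called in any comparison under another rank scale, window or filter, or with a replicate block (0 members called in each comparison). With a replicate block, all genes called numbered 1, 0 and 1 in the 3 comparisons. By within-list rank and by normal scores they numbered 0, 0 and 0. With the 2 kb window, distinct best peaks or a missing peak ranked last they numbered 0, 0 and 1. Deviations of same-numbered replicates correlated at -0.0439, 0.124 and 0.0455 across genes, and whether these replicates shared a batch was not tested. Leaving out single libraries gave 0 to 4 called members for cobimetinib against untreated, the 4 arising without untreated replicate 1. A score of at least 40 left 17 members marked in all 6 libraries, and limits of 10000 and 5000 peaks left 5 and 3 members in place of 12. A score of 40 is not an equal limit in every list. The score at rank 20000 was 44 in untreated replicate 2 and 54 to 70 in the others. For members that did not overlap, TNFα against untreated gave 4 of 30 poorer by within-list rank (1597 of 9684 over all genes) and 1 of 22 over distinct best peaks (1458 of 8554), and TNFα against cobimetinib gave 7 of 22 better over distinct best peaks (1861 of 8554). Leaving out 1 library, which sets 1 library against 2, gave 7 to 17 better and 6 to 14 poorer for cobimetinib against untreated, 10 to 20 and 6 to 12 for TNFα against untreated, and 13 to 17 better for TNFα against cobimetinib. The highest of these came without untreated replicate 2 (17 and 20 better), without untreated replicate 1 (14 and 12 poorer) and without cobimetinib replicate 2 (17 better). Counts over all genes rose as well, for example from 1793 better of 9684 to 3890 of 10761 without untreated replicate 2. With 1 library left out, 30 to 33 members and 9690 to 10761 genes were compared. Over all genes, 2974 to 3890 were better and 3218 to 3971 poorer for cobimetinib against untreated. For TNFα against untreated these counts were 2796 to 3689 and 3083 to 3946, and for TNFα against cobimetinib 3426 to 3696 were better. The leave-one-out counts of members that do not overlap and the counts with canonical starts were chosen after seeing the data. All other results kept their direction and side of the threshold or stayed within 1.5 times the count or 1 SD. Unknown depth and 2 libraries per condition limit what differences could be detected.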
